A study of Mus musculus with 6 samples.

Results

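The transcription factors examined here are 10 genes of the complex that blood stem cells and their early progeny use at shared enhancers: the zinc finger factors Gata1 and Gata2, the basic helix-loop-helix factors Tal1 and Lyl1, the bridging proteins Lmo2 and Ldb1, the ETS factors Fli1 and Erg, and the cofactors Zfpm1 (Fog1) and Gfi1b. They were chosen by gene symbol, and they are 10 of the 24063 gene symbols counted in the series. RNA was sequenced from LSK cells, the lineage-negative fraction of bone marrow with surface Sca-1 and c-Kit, in which lie the stem and multipotent progenitor cells. The question was how the transcripts of this network stand after loss of Asxl2, a Polycomb-associated protein. There were 3 Asxl2-/- and 3 wild-type mice, all C57BL/6, and all had received pIpC, an artificial double-stranded RNA whose interferon response switches on the Mx1 promoter, before marrow was taken.

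The library titles name the Mx1-cre transgene in both groups, so the controls also carried the recombinase and received the inducer. Per the methods of the study, loxP sites flank exon 11 of Asxl2. The Mx1 promoter is known to respond to interferon in tissues other than blood too. The ages of the mice are not in the labels used here. The methods call the 3 samples of a group biological replicates, and each was treated as 1 mouse. In the wild-type group "wild type" refers to Asxl2 only.

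Members of this network work as a physical assembly. GATA2 or GATA1 and a heterodimer of TAL1 or LYL1 with an E-protein bind neighbouring GATA and E-box motifs, LMO2 and LDB1 hold them together, and LDB1 also links distant enhancers to promoters. With FLI1, ERG and RUNX1 (the heptad) the stem cell factors occupy a common set of enhancers, many of them at the members' own genes. As progenitors enter the erythroid and megakaryocyte lineages, GATA1 takes over sites held by GATA2, an exchange for which ZFPM1 is the cofactor, while GFI1B recruits the LSD1 and CoREST repressor complex, and FLI1 favours the megakaryocyte over the erythroid branch.

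The sequence upstream of selected starts is shown because the counts bear on which starts the network's genes used (Tal1 and Erg), and because Gata1 and Gfi1b are the members with the lowest fold changes. The 250 bases before a RefSeq start are given 5′ to 3′ on the gene's strand (build GRCm38.p6, from RefSeq). Capitals mark a match to a GATA motif (AGATAA or TGATAA), an E-box (CAGCTG or CAGATG) or an ETS motif (CCGGAA or AGGAAG), searched on both strands.
Tal1 upstream start (chr4:115056176-115056425, plus strand): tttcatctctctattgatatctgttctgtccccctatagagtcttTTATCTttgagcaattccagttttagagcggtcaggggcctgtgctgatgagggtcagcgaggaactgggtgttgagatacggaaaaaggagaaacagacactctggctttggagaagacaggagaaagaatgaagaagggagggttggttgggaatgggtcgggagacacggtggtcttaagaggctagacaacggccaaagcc
Tal1 downstream start (chr4:115057561-115057810, plus strand): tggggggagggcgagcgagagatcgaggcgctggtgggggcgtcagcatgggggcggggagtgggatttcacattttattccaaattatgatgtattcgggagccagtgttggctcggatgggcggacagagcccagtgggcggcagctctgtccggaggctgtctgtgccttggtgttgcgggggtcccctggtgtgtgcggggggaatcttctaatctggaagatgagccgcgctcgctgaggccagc
Erg start of the counted transcript (chr16:95530366-95530615, minus strand): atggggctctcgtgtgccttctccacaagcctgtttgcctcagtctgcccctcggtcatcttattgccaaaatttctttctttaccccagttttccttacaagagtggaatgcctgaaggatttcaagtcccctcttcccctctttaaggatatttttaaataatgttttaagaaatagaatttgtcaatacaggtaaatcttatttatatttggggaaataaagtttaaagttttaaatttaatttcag
Erg internal start (chr16:95459349-95459598, minus strand): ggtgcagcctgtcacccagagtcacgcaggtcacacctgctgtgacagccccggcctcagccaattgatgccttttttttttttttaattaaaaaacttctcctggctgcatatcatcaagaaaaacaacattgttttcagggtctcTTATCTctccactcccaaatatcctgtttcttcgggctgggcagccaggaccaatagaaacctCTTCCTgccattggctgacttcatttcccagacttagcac
Gfi1b (chr2:28621983-28622232, minus strand): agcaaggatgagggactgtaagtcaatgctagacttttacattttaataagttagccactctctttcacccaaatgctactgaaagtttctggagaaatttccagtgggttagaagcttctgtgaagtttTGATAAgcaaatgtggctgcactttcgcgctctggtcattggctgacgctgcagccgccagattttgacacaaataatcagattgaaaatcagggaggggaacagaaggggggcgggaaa
Gata1 (chrX:7967911-7968160, minus strand): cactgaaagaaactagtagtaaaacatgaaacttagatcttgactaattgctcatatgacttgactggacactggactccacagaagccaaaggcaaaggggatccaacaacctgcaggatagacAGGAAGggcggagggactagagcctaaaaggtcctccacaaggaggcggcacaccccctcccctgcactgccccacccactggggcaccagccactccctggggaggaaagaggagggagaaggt
The upstream Tal1 window held 1 GATA match and the downstream window none. The internal Erg window held 1 GATA and 1 ETS match, the window of the counted Erg transcript none, the Gfi1b window 1 GATA match and the Gata1 window 1 ETS match. Of all 32851 windows of this length, 16.6% held a GATA match, 25.5% an E-box match and 38.2% an ETS match. Promoter entries were at hand for 8 members (none for Lmo2 and Fli1). Among those not printed, the Lyl1 window held 2 ETS matches, the windows at both Gata2 starts and at Zfpm1 held none, and a further Erg window, upstream of both printed, held none. Of the 3 Ldb1 windows the most upstream held none, the next 1 ETS match and the most downstream 2 GATA matches. These are letter matches and say nothing of binding.

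The 6 libraries came as files of 2 kinds. Asxl2-/- replicates 1 and 3 and wild-type replicate 2 were deposited as counts per transcript (gene-count files, 25528540 to 29136012 counts), and Asxl2-/- replicate 2 and wild-type replicates 1 and 3 as counts per exon (exon-count files, 53147729 to 55032075 counts), in which a read across a splice junction can be counted more than once. Levels are therefore compared within a kind of file, as CPM (counts relative to the TMM-scaled size of the library), and every fitted fold change has the kind of file as a covariate. The label was checked in the exon-count files, where exon 11 of Asxl2 held 28 of 4804 counts (0.583%) in Asxl2-/- replicate 2 and 10.3% and 11.99% in the wild-type libraries. The total Asxl2 count differed by 0.11 on the log2 scale (± SE 0.095, adjusted p = 0.469 by edgeR), and gene-count files do not resolve the exon. Xist, the transcript of the inactive X, had 49540 to 66689 counts in the Asxl2-/- libraries and 590 to 3194 in the wild-type libraries, while Y-linked Uty, Kdm5d, Eif2s3y and Ddx3y had 0 to 2 and 1026 to 4807 counts, so sex and genotype cannot be told apart in any comparison below.

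All 10 members were expressed and tested, with 1235 to 23723 counts in a library. In Asxl2-/- cells, Erg, Gata2, Fli1 and Lmo2 stood higher and Gata1 lower in every library of the same kind of file, while the libraries of the 2 groups overlapped for Tal1, Lyl1, Ldb1, Zfpm1 and Gfi1b. No member passed an adjusted p of 0.05 in edgeR's quasi-likelihood test across all 14145 genes (0 of 10, beside 2.34% of all genes). At an unadjusted p under 0.05 there were 5 members (Erg, Lmo2, Fli1, Gata1 and Gata2), against 27.7% of all genes tested, and DESeq2 called 3 (Erg, Fli1 and Lmo2, beside 16.1% of all genes). Complete separation of the libraries within each kind of file was common in these data. It was seen for 25.4% of all genes as higher and 23.3% as lower, which is the background for the 4 higher members and the 1 lower member. The median absolute log2 fold change was 0.42 for the members and 0.24 for all genes tested.

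**Figure D1:**
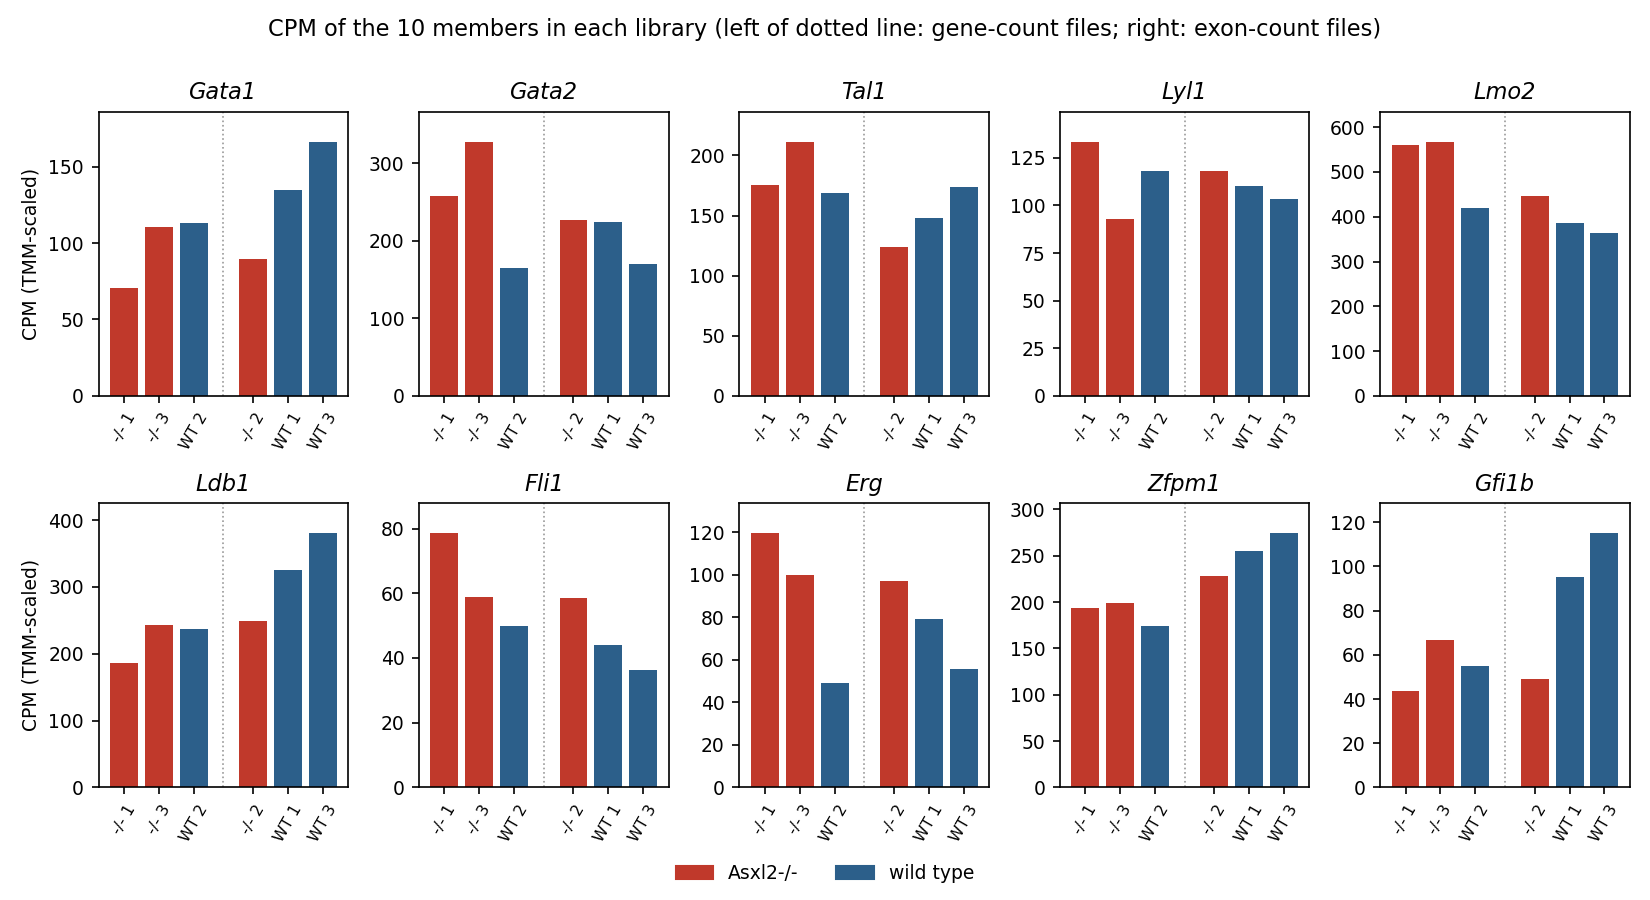
CPM (TMM-scaled, linear axes from 0) of each member in each library, red for Asxl2-/- and blue for wild type, with the replicate number below each bar. Left of the dotted line are gene-count files and right of it exon-count files, and bars are compared on 1 side of the line. Erg, Gata2, Fli1 and Lmo2 stand higher and Gata1 lower in Asxl2-/- on both sides.

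Among the GATA factors, Gata2, the stem cell factor that maintains the immature pool, was at 258 and 327 CPM in Asxl2-/- replicates 1 and 3 against 165 in wild-type replicate 2, and at 226 CPM in Asxl2-/- replicate 2 against 224 and 171 in wild-type replicates 1 and 3. The gap was wide in the gene-count files and almost closed in the exon-count files, where wild-type replicate 1 nearly reached the Asxl2-/- level. Its level was 8.05 ± 0.25 log2 CPM (SD, n = 3, effect of the kind of file removed) in Asxl2-/- and 7.54 ± 0.26 (SD, n = 3) in wild-type cells, a log2 fold change of 0.51 (± SE 0.20, adjusted p = 0.172 by edgeR). Without wild-type replicate 2 the fold change was 0.20.

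Gata1, the X-linked factor that drives erythroid and megakaryocyte maturation, lay on the other side. It stood at 70.6 and 110.5 CPM in Asxl2-/- replicates 1 and 3 against 113 in wild-type replicate 2. The exon-count libraries had 89.6 CPM in Asxl2-/- replicate 2 and 135 and 166 in the wild-type replicates. Asxl2-/- replicate 3 was thus close to the wild-type library of its kind, and the other Asxl2-/- libraries were lower. The log2 fold change was -0.54 (± SE 0.21, adjusted p = 0.171 by edgeR), from 6.51 ± 0.34 log2 CPM (SD, n = 3) in Asxl2-/- and 7.06 ± 0.19 (SD, n = 3) in wild-type cells, and it was -0.32 without Asxl2-/- replicate 2. Of 474 X-linked genes tested, 14 (2.95%) were called, and the median log2 fold change over them was 0.06.

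The balance of the GATA factors is a comparison within a library and does not use the scaling between libraries. Per kilobase of transcript, the ratio of Gata1 to Gata2 counts was 0.468, 0.676 and 0.576 in Asxl2-/- replicates 1 to 3 and 1.02, 1.17 and 1.66 in wild-type replicates 1 to 3. In the gene-count files Gata2 was thus the more abundant transcript in both Asxl2-/- libraries and Gata1 in the wild-type library. Within the exon-count files the Asxl2-/- ratio was below both wild-type ratios. A ratio of 2 genes in those files also holds their junction reads, which weigh differently on transcripts of unequal length, so it is compared there between libraries only. The log2 ratio was lower in Asxl2-/- cells by a mean difference of -1.06, which was -1.17 within gene-count and -0.95 within exon-count files. This is a description with no test, and an exact permutation of 3 samples against 3 could not go below a two-sided p of 0.1. In bulk RNA, fewer cells that carry Gata1 and less Gata1 RNA per cell cannot be told apart.

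**Figure D2:**
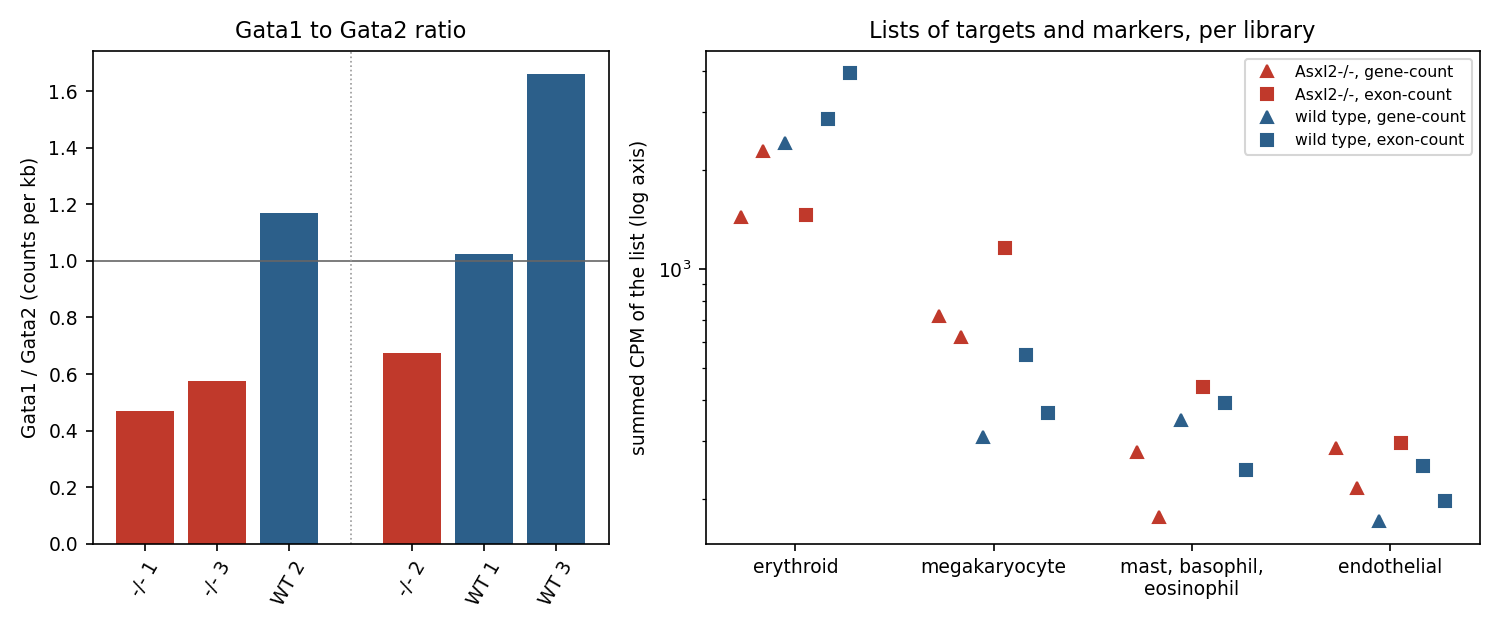
Left, ratio of Gata1 to Gata2 in counts per kilobase in each library (line at 1, gene-count files left of the dotted line), with Asxl2-/- at 0.468 and 0.576 against 1.17 in gene-count files and at 0.676 against 1.02 and 1.66 in exon-count files. Right, summed CPM on a log axis of 4 gene lists in each library, with triangles for gene-count and squares for exon-count files. Within each kind of file the erythroid sums lie lower and the megakaryocyte and endothelial sums higher in Asxl2-/- libraries, and the mast cell, basophil and eosinophil sums lie on different sides in the 2 kinds.

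The basic helix-loop-helix pair did not separate by genotype. Tal1, required for the specification of blood, had 175 and 211 CPM in Asxl2-/- replicates 1 and 3 and 169 in wild-type replicate 2, whereas Asxl2-/- replicate 2 had 124 CPM and wild-type replicates 1 and 3 had 148 and 174. The kinds of file disagreed in sign (0.19 in gene-count and -0.37 in exon-count files), and the log2 fold change was -0.09 (± SE 0.17, adjusted p = 0.756 by edgeR), turning positive when libraries were scaled by size only. Lyl1, which stands in for Tal1 in adult stem cells, had 133 and 92.9 CPM in Asxl2-/- replicates 1 and 3, on either side of 118 in wild-type replicate 2. In exon-count files it had 118 CPM in Asxl2-/- replicate 2 against 110 and 103 in wild-type replicates 1 and 3. Its log2 fold change was 0.04 (± SE 0.15, adjusted p = 0.882 by edgeR), negative under median-ratio scaling. Adding and subtracting 2 SE leaves room for changes in either direction for both genes.

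Of the bridging proteins, Lmo2 was the most abundant member per length and the least variable. It had 560.1 and 567 CPM in Asxl2-/- replicates 1 and 3 against 420.1 in wild-type replicate 2, and 446 CPM in Asxl2-/- replicate 2 against 386 and 363 in wild-type replicates 1 and 3. The Asxl2-/- libraries were above the wild-type libraries within each kind of file. The log2 fold change was 0.34 (± SE 0.088, adjusted p = 0.0895 by edgeR), from 8.98 ± 0.051 and 8.65 ± 0.066 log2 CPM (SD, n = 3 each). Ldb1, which dimerises to bring enhancers and promoters together, had 187 and 243 CPM in Asxl2-/- and 237 in wild-type gene-count files, and 249 CPM against 325 and 380.0 in exon-count files. The overlap came from Asxl2-/- replicate 3, and the log2 fold change of -0.32 (± SE 0.15, adjusted p = 0.227 by edgeR) was -0.14 without Asxl2-/- replicate 2.

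Both ETS members were higher in Asxl2-/- cells. Erg, which sustains stem cell self-renewal and is also an endothelial factor, had 120 and 99.9 CPM in Asxl2-/- replicates 1 and 3 against 48.9 in wild-type replicate 2, and 97.4 CPM in Asxl2-/- replicate 2 against 79.1 and 55.6 in wild-type replicates 1 and 3. Within each kind of file the Asxl2-/- values were above the wild-type values. With 6.74 ± 0.22 and 5.88 ± 0.31 log2 CPM (SD, n = 3 each), Erg had the largest fold change of the 10 members, 0.85 on the log2 scale (± SE 0.21, adjusted p = 0.0831 by edgeR). It passed the threshold without Asxl2-/- replicate 2 (adjusted p = 0.0480, beside 4.67% of all genes called in that fit) and without wild-type replicate 1 (adjusted p = 0.0381, beside 9.33%), and the fold change was 0.53 without wild-type replicate 2 (adjusted p = 0.320).

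Fli1, the activator of megakaryocyte genes, had 78.5 and 58.8 CPM in Asxl2-/- replicates 1 and 3, against 49.9 in wild-type replicate 2. Its values were 58.4 CPM in Asxl2-/- replicate 2 and 44.2 and 36.4 in wild-type replicates 1 and 3. Again no wild-type library reached an Asxl2-/- library of its kind. The log2 fold change of 0.50 (± SE 0.15, adjusted p = 0.105 by edgeR) was similar in the gene-count (0.44) and exon-count files (0.54), the closest match between the kinds of file among the 5 members at an unadjusted p under 0.05.

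Between the cofactors, Zfpm1, which binds GATA1 and GATA2, went opposite ways in the 2 kinds of file. It had 193 and 199.5 CPM in Asxl2-/- replicates 1 and 3 against 174 in wild-type replicate 2 (0.18). In exon-count files it had 228 CPM in Asxl2-/- replicate 2 against 256 and 274 in wild-type replicates 1 and 3 (-0.21). The log2 fold change was -0.02 (± SE 0.11, adjusted p = 0.933 by edgeR), positive with scaling by library size only. Gfi1b, the repressor that restrains stem cell cycling and is needed for erythroid and megakaryocyte maturation, had 43.8 and 66.5 CPM in Asxl2-/- replicates 1 and 3 against 55.1 in wild-type replicate 2, and 49.3 CPM in Asxl2-/- replicate 2 against 95.1 and 114.9 in wild-type replicates 1 and 3. The wild-type exon-count libraries stood well above the rest. The log2 fold change of -0.55 (± SE 0.30, adjusted p = 0.278 by edgeR) rested on the exon-count files (-1.09), was -0.03 within gene-count files and was 0.00088 without Asxl2-/- replicate 2.

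**Figure D3:**
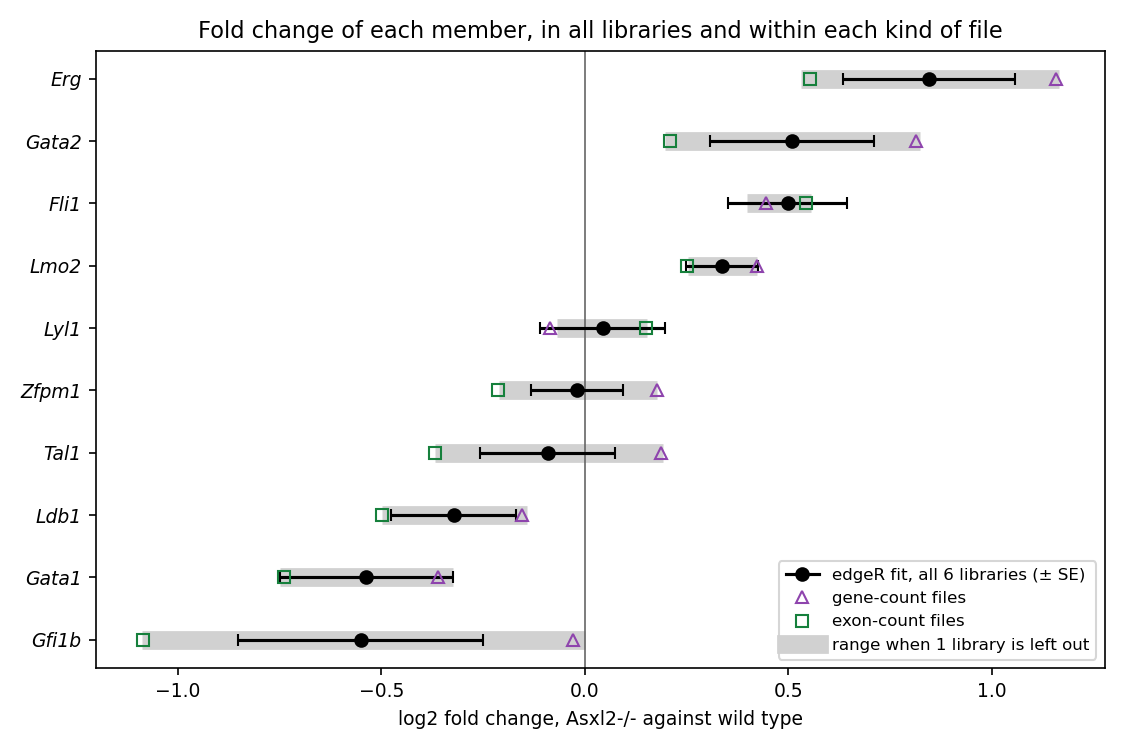
Log2 fold change of each member, Asxl2-/- against wild type, from the edgeR fit of all 6 libraries (black points with SE), within gene-count files (triangles) and exon-count files (squares), and the range over fits that leave out 1 library (grey bars). Values run from -0.55 for Gfi1b to 0.85 for Erg, and Tal1, Lyl1 and Zfpm1 have opposite signs in the 2 kinds of file.

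Levels were ordered by their mean per kilobase in the 3 gene-count libraries, the scale on which genes can be compared. These are Asxl2-/- replicates 1 and 3 and wild-type replicate 2, so the order leans on Asxl2-/- cells. Lmo2 led at 255 to 345 CPM per kilobase and stood apart from the next member, Ldb1 (81.6 to 106). Below it came Gata2 (51.0 to 101), Lyl1, Zfpm1, Gata1 (37.1 to 59.6), Tal1, Erg (22.1 to 54.0), Gfi1b and Fli1 (15.7 to 24.7). Each of these neighbours overlapped in range from Ldb1 downward, so the ranges did not resolve the order of adjacent members, and Lmo2 alone was set apart from its neighbour. Library by library, Ldb1 was above Gata2 in each (81.6 and 79.4, 106 and 101, 103.5 and 51.0). In wild-type replicate 2, Gata2 (51.0) lay below Lyl1 (65.6), Gata1 (59.6) and Zfpm1 (51.3), and Erg (22.1) below Gfi1b (30.25). Members further apart in the order could differ, as Ldb1 and Fli1 did. Over all 6 libraries, with the effect of the kind of file removed, the 6 highest correlations between members (Pearson r) were those of Gata1 with Ldb1 (0.991) and Gfi1b (0.927), Ldb1 with Gfi1b (0.963), Lmo2 with Erg (0.965) and Gata2 (0.905), and Tal1 with Zfpm1 (0.913). The lowest were those of Fli1 with Gata1 (-0.976) and Ldb1 (-0.949). These describe 6 libraries that include the genotype difference, and carry no test.

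The genes with the pattern most like Gata1 over the 6 libraries, among 9686 genes with a mean of at least 3 log2 CPM, were Spag17, 2410004N09Rik, Rnf145, Ermap and Ank1 (Pearson r from 0.997 to 0.999). Ermap encodes an erythroid membrane protein and Ank1 the ankyrin of the red cell membrane skeleton. For Gata2 they were Ino80d, a subunit of the INO80 chromatin remodeller, Kansl1l, Ago1, an Argonaute protein, Dnajc27 and Fam126b (r from 0.996 to 0.998). Such values are common with 6 libraries, since 346 genes for Gata1 and 190 for Gata2 exceeded an r of 0.95.

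The 3 exon-count libraries, with 1 Asxl2-/- among them, show which parts of each member were read. Of 72 exons of the chosen transcripts, the share of the transcript's counts in Asxl2-/- replicate 2 had an exact binomial 95% interval apart from those of both wild-type libraries for 2, the first exons of Lmo2 (15.5% against 17.1% and 17.2%) and Ldb1 (3.20% against 3.86% and 3.88%). The Lmo2 exon (426 bases) includes a stretch of 220 bases that is exon 2 of the other Lmo2 transcripts. As exon 2 of another transcript, that stretch held 14.5% against 16.3% and 16.2%, so the Lmo2 difference is not particular to a start. The largest difference between the Asxl2-/- library and the mean of the wild-type libraries was 1.77 percentage points, at the last exon of Gata2. Intervals cover counting error only, since amplified reads without molecular identifiers are not independent molecules, and 1 library against 2 does not compare the genotypes.

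Starts were read from the exons at the 5′ end. The upstream first exon of Tal1 (44 bases, behind the upstream window printed above) had 3 counts in Asxl2-/- replicate 2 and 0 in both wild-type libraries, where 3 counts would be 0.0472% and 0.0436% of this exon plus the last exon and the exact intervals reach 0.0580% and 0.0535%. The downstream first exon (61 bases) had 49 counts (0.869%, interval 0.644 to 1.15) and 88 and 82 counts (1.37%, 1.10 to 1.68, and 1.18%, 0.937 to 1.46). Counts thus lay almost wholly at the downstream start in these libraries, at a depth that leaves the difference between them within the intervals.

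Erg showed the same kind of imbalance at its 5′ end. Exon 1 of its longest transcript (102 bases, behind the window of the counted transcript printed above) had 0 counts in all 3 libraries. As a share of exon 1 plus the last exon, 3 counts would be 0.145%, 0.184% and 0.302%, and the exact intervals reach 0.178%, 0.226% and 0.371%. Exon 2 had 35, 15 and 15 counts in Asxl2-/- replicate 2 and wild-type replicates 1 and 3. Exon 3 had 524, 372 and 257 counts, 20.2%, 18.6% and 20.6% of exon 3 plus the last exon. The internal start, whose window held the GATA and ETS matches, lies between exons 2 and 3. The intervals at exon 3 overlapped between the libraries (18.7 to 21.8, 16.9 to 20.3 and 18.4 to 22.9).

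Lmo2 has 3 annotated first exons. The distal one took 2.29% (interval 2.06 to 2.54) of its counts plus those of the last exon in Asxl2-/- replicate 2, below 3.19% (2.89 to 3.51) and 4.01% (3.65 to 4.40) in wild-type replicates 1 and 3, which were also apart from each other. The intermediate exon (4.46% against 5.03% and 4.61%) and the proximal exon (3.52% against 3.40% and 3.36%) had intervals that overlapped between the libraries. Ldb1 had 8.50% at its upstream first exon against 8.07% and 5.94%, with the wild-type libraries apart from each other. Its downstream first exon had 14.8% (13.55 to 16.19) against 16.8% (15.59 to 17.96) and 17.3% (16.12 to 18.47). These intervals overlapped, unlike those for the same exon as a share of all counts of the transcript. The RefSeq exons of the members share no bases with another gene, except 5 bases of Lyl1 with Nfix. The libraries do not keep strand, so antisense RNA over these exons cannot be told apart from the members.

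**Figure D4:**
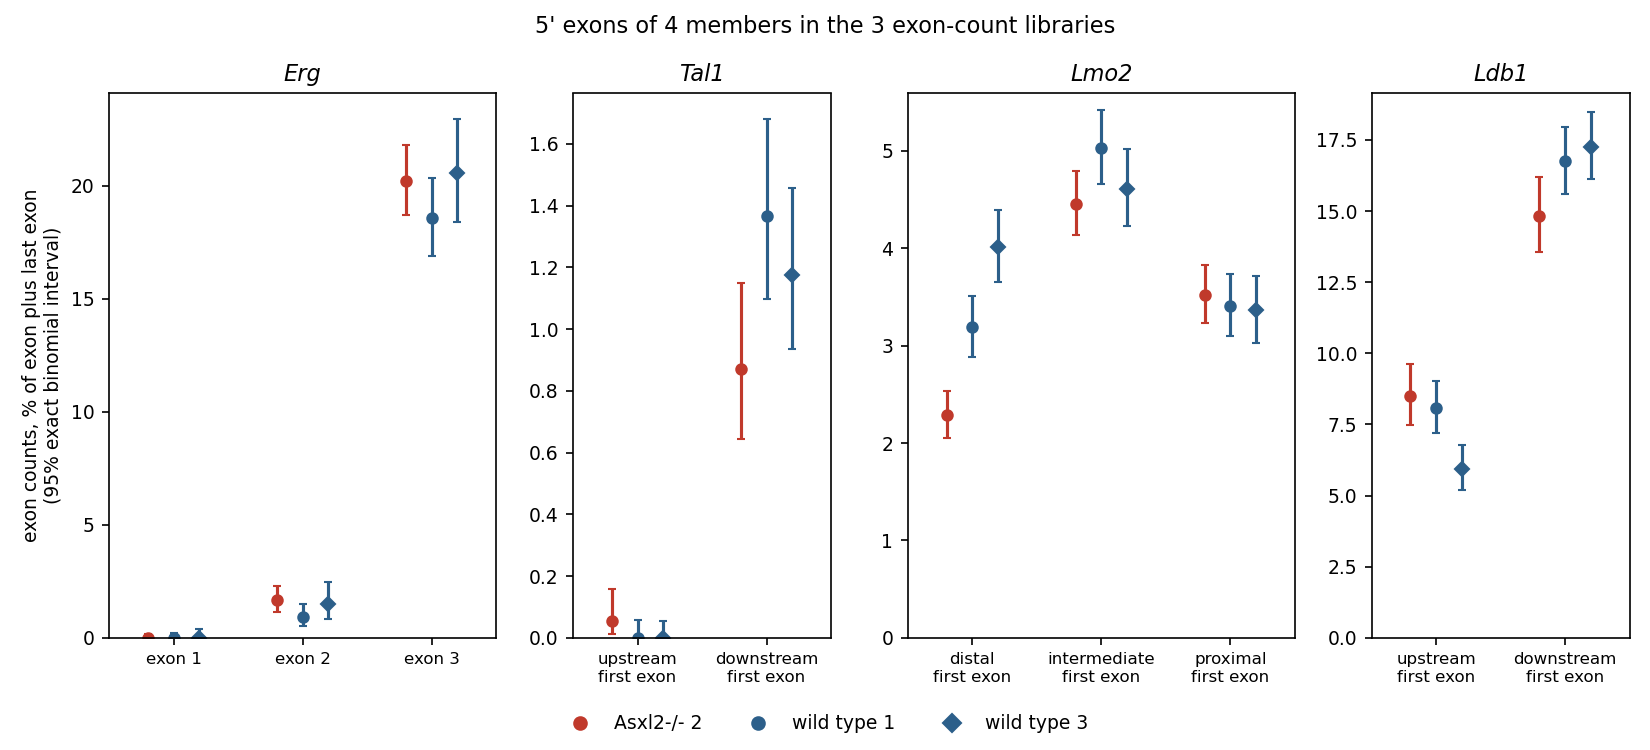
Counts of 5′ exons as a percent of that exon plus the last exon of the transcript, with exact binomial 95% intervals, in Asxl2-/- replicate 2 (red circles) and wild-type replicates 1 (blue circles) and 3 (blue diamonds). Erg exon 1 and the upstream Tal1 exon lie at or near 0, and the distal Lmo2 exon is lower in the Asxl2-/- library (2.29%) than in the wild-type libraries (3.19% and 4.01%).

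The partners of the network were read from the same fit. Of 35 partners, 32 were tested, 1 was called higher (beside 2.04% of all genes) and none lower (beside 0.304%) in edgeR, and the median log2 fold change was 0.06 beside 0.00052 over all genes. At an unadjusted p under 0.05 there were 10 partners, beside 27.7% of all genes. The gene called was Ets1, which acts in lymphoid and endothelial cells, at 37.2, 23.0 and 29.0 CPM in Asxl2-/- replicates 1 to 3 and 13.9, 14.0 and 9.98 CPM in wild-type replicates 1 to 3 and a log2 fold change of 1.09 (± SE 0.19, adjusted p = 0.0490 by edgeR). The Asxl2-/- libraries were above the wild-type libraries within each kind of file. The number of partners called was 0 without Asxl2-/- replicate 1, wild-type replicate 2 or wild-type replicate 3, beside 0.109%, 0.834% and 0.0636% of all genes. It was 3 without wild-type replicate 1, beside 9.33% of all genes. Next by p-value were Nfe2, a megakaryocyte and erythroid factor (0.53), Etv6, an ETS repressor required in adult stem cells (0.52), Gata3 (0.83) and Klf1, the erythroid Krüppel-like factor (-1.07), with adjusted p-values of 0.0583 to 0.103. Runx1, which completes the heptad and is named for that reason outside the naming rule, had a log2 fold change of 0.30 (adjusted p = 0.103) with all Asxl2-/- libraries higher within each kind of file.

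Target genes of the erythroid and megakaryocyte branches lay on opposite sides. Of 18 megakaryocyte targets of GATA1 and FLI1, 17 were tested and 7 rose (among them Vwf, Ppbp, Gp5, Selp and Pf4), none fell, beside 2.04% of all genes called higher. All 17 had a positive log2 fold change, with a median of 1.07. In 14 the Asxl2-/- libraries were higher within each kind of file, beside 25.4% of all genes. Vwf, which encodes von Willebrand factor and marks platelet-biased stem cells, rose by a log2 fold change of 2.17 (± SE 0.23, adjusted p = 0.0190 by edgeR). Ppbp, a platelet chemokine, rose by 2.72 (SE 0.33, adjusted p = 0.0228), Gp5, a platelet glycoprotein, by 0.72 (SE 0.097, adjusted p = 0.0281) and Selp, the platelet adhesion molecule P-selectin, by 1.07 (SE 0.15, adjusted p = 0.0308). Ppbp had few counts, 40, 210 and 30 in Asxl2-/- replicates 1 to 3 and 26, 7 and 24 in wild-type replicates 1 to 3.

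The number of megakaryocyte targets called depended on the libraries, as did the share of all genes called. It was 0 without Asxl2-/- replicate 1 or wild-type replicate 3, beside 0.109% and 0.0636% of all genes. It was 1 without Asxl2-/- replicate 3 (beside 0.651%) and 2 without wild-type replicate 2 (beside 0.834%). It was 5 without Asxl2-/- replicate 2 (beside 4.67%) and 10 without wild-type replicate 1 (beside 9.33%). Their summed level was 721, 1161 and 623 CPM in Asxl2-/- replicates 1 to 3 and 547, 310.2 and 367 CPM in wild-type replicates 1 to 3, so the groups did not overlap within a kind of file. Fli1 and Erg had log2 fold changes of 0.50 and 0.85 in the same libraries.

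None of the 16 erythroid targets of GATA1 tested passed the edgeR threshold, beside 2.34% of all genes. There were 7 with an unadjusted p under 0.05 (beside 27.7% of all genes) and 13 with a negative log2 fold change (median -0.80). In 7 of them the Asxl2-/- libraries were lower within each kind of file, beside 23.3% of all genes. The smallest p-values belonged to Tfrc, the transferrin receptor (-1.14, SE 0.22, edgeR adjusted p = 0.0557), Rhag, of the Rhesus complex (-1.55), Epor, the erythropoietin receptor (-0.87), Tspo2 (-1.04) and Car2, carbonic anhydrase (-0.73). Summed CPM was 1435, 1464 and 2286 in Asxl2-/- replicates 1 to 3 and 2858, 2412 and 3934 in wild-type replicates 1 to 3, with the Asxl2-/- sums below the wild-type sums within each kind of file, as for Gata1. The globin genes Hba-a1 and Hbb-b1 had log2 fold changes of -0.29 and 0.05, with overlapping libraries.

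Other cells that use these factors were examined next. Gata2 also serves mast cells and basophils. Of 14 tested markers of mast cells, basophils and eosinophils none was called in edgeR, beside 2.34% of all genes. Only 1 had an unadjusted p under 0.05 (Gzmb, -0.85), beside 27.7% of all genes, and the median log2 fold change was 0.05. Prss34, Fcer1a, Prg2 and Ms4a2 followed by p-value, each with overlapping libraries. The summed level was 279 and 177 CPM in Asxl2-/- against 347 in wild-type gene-count files and 439 CPM against 394 and 245 in exon-count files. Erg, Fli1 and Lmo2 are shared with endothelial cells. Of 13 tested endothelial markers 10 had a positive fold change (median 0.83) and 6 an unadjusted p under 0.05 (beside 27.7% of all genes). None passed the edgeR threshold, beside 2.34% of all genes. By p-value the markers were led by Sox18 (2.47), Esam (1.76), Emcn (1.66), Tie1 (1.09) and Tek (0.83), with edgeR adjusted p-values from 0.0506 to 0.135. Sox18 had few counts, from 4 in wild-type replicate 2 to 100 in Asxl2-/- replicate 2. The 3 markers with a negative fold change were Kdr (-0.31), Flt1 (-0.89) and Flt4 (-0.88), and none of them passed. Esam, Tie1 and Tek are also made by stem cells.

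The defining endothelial marker Cdh5 had 27 and 10 counts in Asxl2-/- against 10 in wild-type gene-count files and 31 against 24 and 6 in exon-count files (log2 fold change 0.94, adjusted p = 0.382 by edgeR), Sox17 and Cldn5 had 0 to 3 counts in every library, and Lyve1 reached 12 counts in Asxl2-/- replicate 2. The summed list stood at 286 and 216 CPM in Asxl2-/- against 172 in wild-type gene-count files and at 297 CPM against 253 and 198 in exon-count files, higher in Asxl2-/- in each kind. The study sorted CD45.2+ cells, a gate for cells that carry the pan-leukocyte antigen. The part of these cells in the Erg, Fli1 and Lmo2 values was not tested.

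The cells were checked against their labels by fixed markers. Kit and Cd34 were abundant in every library (8060 to 22485 and 11050 to 24198 counts). Of 11 LSK markers tested, 2 rose in Asxl2-/- cells, beside 2.04% of all genes called higher. Among them was Slamf1 (1.53 ± SE 0.17, adjusted p = 0.0196 by edgeR), carried by long-term stem cells. Next were Ly6a, which encodes Sca-1 (-1.34), Hlf (1.01) and Cd34 (0.42), which did not pass. Ly6a was uneven, with 1483, 3677 and 1633 counts for Asxl2-/- replicates 1 to 3 and 2109, 7479 and 7002 for wild-type replicates 1 to 3. Of 14 tested markers of the lineages that the sort removes, 3 rose, beside 2.04% of all genes called higher. Among them were Cd79a of B cells and Ngp of neutrophils, at log2 fold changes of 1.84 and 3.62. Next by p-value were Cd79b (1.05) and Itgam (1.01), which did not pass (adjusted p = 0.0507 and 0.0528 by edgeR). The fold change was positive for 12 of the 14 and negative for Cd8a (-1.08) and Cd3g (-0.26) of T cells. For Cd8a the Asxl2-/- libraries were lower within each kind of file. The markers called depended on the libraries. None of either list was called without Asxl2-/- replicate 1 or wild-type replicate 3. Without wild-type replicate 2 there were 1 of the removed lineages and 0 LSK markers, and without Asxl2-/- replicate 3 there were 5 and 0. Without Asxl2-/- replicate 2 or wild-type replicate 1 there were 3 and 3. Of all genes, 0.109% were called without Asxl2-/- replicate 1, 0.0636% without wild-type replicate 3 and 0.834% without wild-type replicate 2. The share was 0.651% without Asxl2-/- replicate 3, 4.67% without Asxl2-/- replicate 2 and 9.33% without wild-type replicate 1. Summed, the markers of the removed lineages stood at 421 and 228 CPM in Asxl2-/- against 177 in wild-type gene-count files, and at 282 CPM against 161 and 127 in exon-count files. The summed LSK markers were at 1918 and 1592 CPM in Asxl2-/- against 1535 in wild-type gene-count files. In exon-count files they were at 1551 CPM, between the wild-type sums of 1571 and 1375. Their part in the values of the members was not tested.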

How the data were processed

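RNA was sequenced from LSK cells of 6 mice, 3 per group, grouped by the library titles. The deposited values were raw counts as whole numbers, which the authors made over RefSeq transcripts of the mm10 genome, from poly(A)-selected libraries without strand. The submitters' processing notes name STAR, featureCounts and DESeq2, with no version or role. In 3 files the counts are per transcript (33068 lines), in 3 per exon (317548 lines). Here each symbol was represented by its longest transcript and exon counts were summed. The kind of file, which sets how reads were counted, was a covariate.

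The main test was edgeR 4.0.16 in R 4.3.3 (quasi-likelihood, TMM, filterByExpr, design of kind plus group with 3 residual degrees of freedom), two-sided, with Benjamini-Hochberg adjustment over 14145 genes and a threshold of 0.05. SEs come from the fold change and F. Means ± SD are log2 CPM with the effect of the kind of file removed, which makes the SDs slightly low. Fold changes within a kind of file rest on 3 libraries and have no test. Exact binomial intervals used scipy 1.17.1 and floors are 3 counts of the total. P-values measure the spread between these 6 samples.

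The members and lists were chosen with earlier results of these data known. Genes named were the members, Asxl2, 5 sex-linked genes, up to 5 genes per list with the smallest p and the 5 genes most correlated with Gata1 and with Gata2. Of these, 3 list genes are not reported here. Runx1, Pf4, Cdh5, Sox17, Cldn5, Lyve1, Kdr, Flt1, Flt4, Cd8a, Cd3g, Kit, Hba-a1 and Hbb-b1 were added after their values were seen. Alternatives were DESeq2 1.42.0, limma-voom (limma 3.58.1), other scalings, filters, transcripts and covariates, genes outside X and Y, and each library left out. Use of only the longest exon in exon-count files was added after seeing the data. The authors' reads and Cuffdiff results were not used here.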

Additional observations from a re-analysis of the deposited data

How the results depend on the processing

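The count of genes called, 331 (2.34% of all genes tested), was 2265 (16.1%) with DESeq2 and 161 (1.14%) with scaling by library size only. It ran from 9 (0.0636%) to 1312 (9.33%) with a library left out. For the members, where none was called, DESeq2 called 3 and leaving out a library called from 0 to 1. Of 129 list genes, 12 were called in the main fit, 37 with DESeq2, 6 with library size only and from 0 to 23 with a library left out. These counts stand beside the shares of all genes given above for the same fits. The replicate numbers were not shown to pair the samples (correlations of same-numbered samples of 0.29, -0.0077 and -0.0028), and the samples are taken to share only a number. Before any removal, Asxl2-/- replicate 2 correlated best with wild-type replicate 3 (0.26) and Asxl2-/- replicate 3 with wild-type replicate 2 (0.057). With the effect of the kind of file removed, same-numbered samples had 0.64, 1 and 0.39, and every sample correlated best with its own number. The removal itself makes the deviations of the samples numbered 2 equal. It also ties the summed deviations of those numbered 1 and 3 between the groups, so this hint of pairing is limited. With the replicate block and the kind of file as terms, which leaves 1 residual degree of freedom, 5179 genes (36.6%), 7 members and 72 list genes were called. Gata1, Gata2, Lmo2, Ldb1, Fli1 and Erg kept their sign in all fits run. Leaving out a library gave -0.37 to 0.19 for Tal1, -0.068 to 0.15 for Lyl1, -0.21 to 0.18 for Zfpm1 and -1.09 to 0.00088 for Gfi1b, with the sign turned without Asxl2-/- replicate 2 for all 4, without Asxl2-/- replicate 1 for Lyl1 and without wild-type replicate 3 for Zfpm1. Tal1 also turned to 0.0088 with library size only, 0.057 without a term for the kind of file and 0.028 with the replicate block alone, Lyl1 to -0.011 with DESeq2 and -0.0057 with median-ratio scaling, and Zfpm1 to 0.080 with library size only. The cause was not tested. Gata1 and Gata2 have 1 counted transcript each, so another choice of transcript could not alter their ratio. With 3 libraries per group, SEs of the members ran from 0.088 to 0.30 on the log2 scale.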
